A study of Mus musculus with 24 samples.

Results

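Glycolysis turns glucose into pyruvate and lactate, and the hypoxia response is the set of genes that cells switch on when oxygen is scarce. The 33 genes described here are listed members of these programmes, matched by symbol to 33 of the 54446 gene identifiers counted in each library. They were listed with earlier results of these data known. Of these genes, 18 belong to glucose uptake, glycolysis and lactate handling, and 15 are hypoxia-induced genes with other roles. All 33 had enough counts to be tested.

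The study asked how the m6A reader Ythdf2 acts in tumour myeloid cells after radiotherapy. CD11b+ myeloid cells were sorted from MC38 tumours, a colon carcinoma line, in C57BL/6J mice. WT mice carried floxed Ythdf2 (fl/fl) without Cre, and Ythdf2 cKO mice carried the same floxed allele together with LyzCre, a Cre expressed from the Lyz2 locus in myeloid cells. Tumours were left unirradiated (Ctrl) or received 1 dose of 20 Gy (IR), with the cells collected 3 days later. Total messenger RNA (Input) and fragments pulled down with an antibody against N6-methyladenosine (m6A IP) were sequenced, which gave 24 libraries in 8 groups of 3. The methods say that each replicate pooled several mice and call the replicates technical in one place and biological in another, so the p-values below measure the spread between libraries. In units of 1e6 gene counts, each Input library held 65.2 to 83.7 and each IP library 68.9 to 86.4.

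Cells that lack oxygen stabilise HIF transcription factors, which bind a short core sequence near the start of glycolytic and stress genes. Prolyl hydroxylases of the Egln family use oxygen to mark HIF for destruction and are themselves HIF targets. Myeloid cells in tumours are known to rely on glycolysis. Many mRNAs also carry m6A, mostly near stop codons and in long exons, and Ythdf2 binds m6A and promotes decay of the mRNA.

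The labels were checked first on the targeted locus. Ythdf2 Input counts were higher in the cKO groups, at 96.8 CPM (counts scaled to a common library size) in WT Ctrl, 178 in cKO Ctrl, 105.0 in WT IR and 223 in cKO IR, so the counts over the whole gene do not show a loss of transcript. Lyz2, the locus that carries Cre, stood at 20581 CPM in WT Ctrl Input, 299.7 in cKO Ctrl Input, 20739 in WT IR Input and 409 in cKO IR Input. In the IP libraries Lyz2 was at 17284 CPM in WT Ctrl and 95.1 in cKO Ctrl, but at 98.5 in the libraries labelled WT IR and 21131 in the libraries labelled cKO IR. The irradiated IP libraries thus carry the Lyz2 level of the other genotype, and their values are given below by label and, where a ratio over Input is given, also over the Input of the other genotype label. WT IR Input replicates 1 and 2 differed from each other more than any other pair of replicates, with a chi-square per gene of 37.6 against at most 17.95 elsewhere.

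The cells carried the markers of myeloid cells. The 7 general myeloid markers, among them Itgam (the gene of CD11b), summed to 4112 to 5506 CPM in every Input library. T and NK cell markers summed to at most 0.339 CPM, with Ncr1 at 0 in 3 of the 4 Input groups, fibroblast markers to at most 0.660 CPM and epithelial tumour cell markers to at most 1.27 CPM, with Krt19 at 0 throughout. Neutrophil markers (8 of 8 detected) summed to 1791 to 1883 CPM in WT Ctrl, 886 to 893 in cKO Ctrl, 444 to 479.7 in WT IR and 472 to 498 in cKO IR. Monocyte markers (6 of 6 detected) summed to 1119.6 to 1163 CPM in WT Ctrl, 1090.1 to 1104 in cKO Ctrl, 529 to 560.0 in WT IR and 842 to 864 in cKO IR. Markers of red blood cells reached 27.4 to 29.9 CPM in WT IR Input and at most 0.067 in the other Inputs. Macrophage markers (7 of 7 detected) summed to between 3692 and 4385 CPM in all Inputs. Apoe made up most of that sum, with a mean of 2413 CPM in WT Ctrl and 2180 in cKO Ctrl. From WT Ctrl to cKO Ctrl, Adgre1 moved from 613 to 808 CPM and C1qb from 393 to 507. C1qa, C1qc and Mrc1 were also higher in cKO Ctrl, and Trem2 was lower. On irradiation C1qa, C1qb and C1qc fell for both genotypes. Dendritic cell markers summed to 405 to 415 CPM in WT Ctrl, 461 to 467 in cKO Ctrl, 620.1 to 639 in WT IR and 702 to 737 in cKO IR, with Xcr1 at 0 in WT IR and cKO Ctrl and Cd209a at 0 in WT IR. Ccr7 made up most of the dendritic cell sum. Its mean moved from 365 to 560 CPM on irradiation of WT and from 421 to 656 for cKO. Chil3 gave much of the monocyte fall, moving from 536 to 139 CPM for WT and from 337 to 189 for cKO. Ly6c2, Ccr2 and Plac8 fell too, while Vcan rose for WT and Hp for cKO. These sums can thus follow a few genes rather than a shift of cell types. The fall of the neutrophil and monocyte sums and the rise of the dendritic cell sum run alongside every irradiation effect below. Their part in those effects was not tested. In such bulk samples fewer cells of a type and less RNA per cell cannot be told apart.

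Sequences of 2 kinds are shown because the results return to them. The first are the promoters of members, where RefSeq (GRCm38.p6) gave 250 bases before to 50 bases after the start site for 31 of the 33 genes. The HIF core ACGTG, searched on both strands and printed on the coding strand with the match in capitals (CACGT is the same core on the other strand), lies in these windows:
Ldha: cggcccagcctaCACGTgggttcccgcac
Pgk1: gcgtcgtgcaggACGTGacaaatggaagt
Hk2: aatgagcacatcCACGTcactgtccgggg
Pfkfb3: ctccgcgccgtgACGTGccaagctgtgac
Slc2a1: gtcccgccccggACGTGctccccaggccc
Bnip3: gcgcacgcgccgCACGTgccacacgctcc
Ankrd37: cagtgtttgggtACGTGaggccgcagcgg
Ddit4: agaacgttgcgaACGTGcgcccggtgcct
Hilpda: gatggccagcggACGTGccccagggcgag
Egln3: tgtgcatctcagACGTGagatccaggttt
These 10 members are among those whose Input levels are described below. Other described members, among them Hk1, Pgam1, P4ha2 and Vegfa, also held the core but are not printed. For each printed gene 1 match is shown where there are several. In the order listed the windows lie on GRCm38 at chr7:46845744-46845772 (+), chrX:106186938-106186966 (+), chr6:82774490-82774518 (-), chr2:11553973-11554001 (-), chr4:119108697-119108725 (+), chr7:138909598-138909626 (-), chr8:45999840-45999868 (-), chr10:59951941-59951969 (-), chr6:29272571-29272599 (+) and chr12:54204087-54204115 (-).

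ACGTG was found in the promoter window of 22 of the 31 matched members (71.0%), against 21.8% of the 27025 genes in the same table. GCGTG, the other common form of the core, was also found in 22 of 31 (71.0%), against 35.2% of all genes. At least 1 of these forms was present in 29 of 31 members (93.5%), against 46.7% of all genes. A gene counted if any of its promoters held a match. Per promoter, ACGTG was in 53.2% of 47 member promoters, against 19.6% of all 32851. Either form was in 78.7%, against 43.8%. A match says that these letters lie in the window, and nothing here measured binding of a factor to it. The members were listed for roles that include induction by hypoxia, and all genes were not matched to them for base composition.

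GGAC is the core of the m6A consensus. The second kind are windows at the summits of m6A peaks, where the GGAC nearest the summit is in capitals with any following T. They are shown for the 8 members whose strongest peak in WT Ctrl held GGAC within 50 bases of its summit:
Hilpda: actcttttGGACctaagtatc
Pfkp: cctacctaGGACTcctagagc
Pfkfb4: ggtaacggGGACatgcctttg
Tpi1: tagcagagGGACTcggggtga
Pgam1: agcaatccGGACcctctggac
Slc16a3: ccccctgtGGACgtgggagtg
Pdk1: aaggccagGGACcaggtgagg
Ldha: ggaggtatGGACaaaatagat
The Hilpda window (chr6:29275151-29275171, +), the Pfkfb4 window (chr9:109031153-109031173, +) and the Pdk1 window (chr2:71900945-71900965, +) are in 3' UTRs. The Tpi1 window (chr6:124812488-124812508, -) is in coding sequence, and its GGACT lies just outside the peak, whose summit lies in an exon of another transcript. Those of Pfkp (chr13:6597990-6598010, -), Pgam1 (chr19:41915651-41915671, +) and Slc16a3 (chr11:120958028-120958048, +) are in coding sequence, and that of Ldha (chr7:46854931-46854951, +) is in an intron of the representative transcript.

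The members spanned a wide range of levels. Per kilobase of exon (RPKM, CPM divided by exon length), WT Ctrl Input ran from 0.153 ± 0.031 for P4ha2 to 485 ± 10.7 for Aldoa (mean ± SD, n = 3 here and throughout), with a median of 15.8. Aldoa, the aldolase that splits the sugar into triose phosphates, was followed by Pkm, the pyruvate kinase, at 335 ± 3.81 RPKM, and by the enolase Eno1 at 198 ± 4.06. Pgk1, phosphoglycerate kinase, stood at 170.5 ± 3.42, Pgam1, phosphoglycerate mutase, at 147 ± 2.76, and Ldha, which makes lactate, at 139 ± 1.69. These 6 genes were the members above 100 RPKM, and none of their neighbours in this order overlapped within 1 SD. The SD covers the spread between libraries and not the choice of exon length, here the union over all transcripts of a gene. Before division by length Pkm stood above Aldoa, at 1676 against 1412 CPM. Gpi1 (96.3 RPKM) and Gapdh (75.2 RPKM) came next.

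Of the hexokinases at the entry of the pathway, Hk2 was at 15.8 ± 0.427 RPKM and Hk1 at 13.9 ± 0.203. Vegfa, at 13.9 ± 0.026, and Hk1 could not be placed in order, nor could Pfkl (18.2 ± 0.734) and Slc16a3 (18.2 ± 0.824). The lowest 5 members were Ddit4 at 3.43 ± 0.167, Ankrd37 at 2.19 ± 0.231, Hilpda at 1.56 ± 0.360, Adm at 0.359 ± 0.068 and P4ha2. Counts of Gapdh, Pgk1, Eno1, Aldoa, Ldha, Tpi1, Pgam1 and Pkm carry an uncertainty, because these genes have processed pseudogenes or near-identical copies that unique-read counting can lose reads to.

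**Figure D1:**
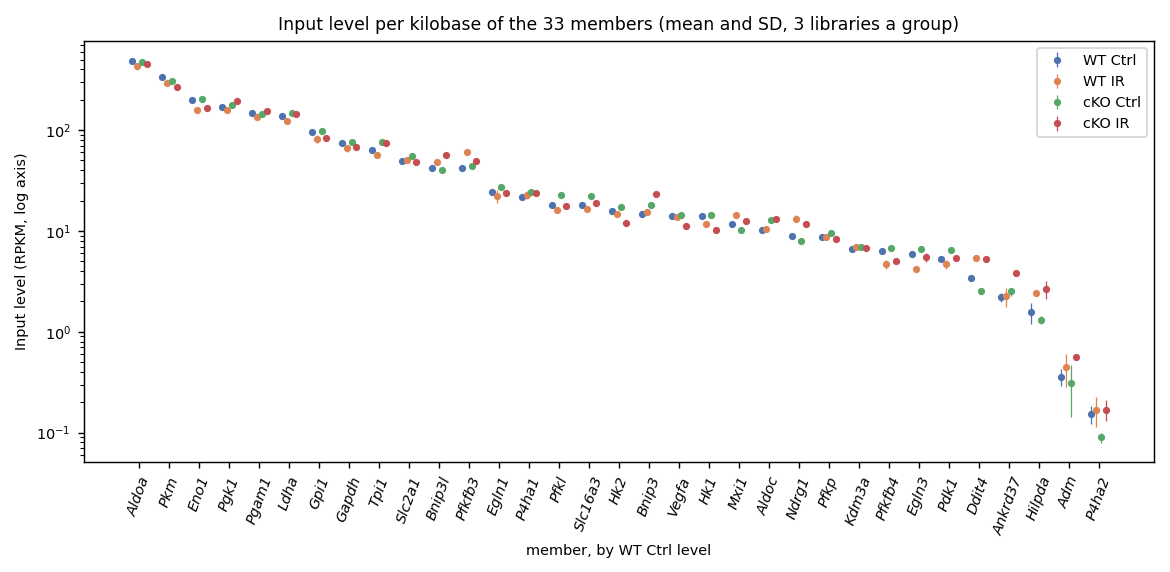
Input level per kilobase of exon (RPKM, log axis) of the 33 members, ordered by WT Ctrl; points are group means and bars SDs over 3 libraries. Aldoa leads at 485 RPKM and P4ha2 is lowest at 0.153 in WT Ctrl, and for most members the 4 groups lie close together on this scale.

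The first comparison asks what irradiation did in WT cells. Glycolytic mRNAs fell by small amounts while part of the hypoxia-induced genes rose. Of the 33 members 20 passed the test (6 higher, 14 lower), where 31.7% of all 16090 genes tested did (14.7% higher, 17% lower). Among the 18 glycolysis members 12 fell and 1 rose, with a median log2 change of -0.18. Among the 15 hypoxia members 5 rose and 2 fell, with a median of 0.090. The median over all genes tested was 0.0057. In 20 members the 3 WT IR libraries did not overlap the 3 WT Ctrl libraries, where 39.8% of all genes did not (19.1% higher, 20.7% lower).

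The same comparison in cKO cells gave 25 members past the test (10 higher, 15 lower), against 45.6% of all genes (21.8% higher, 23.8% lower). Of the glycolysis members 11 fell and 2 rose, with a median log2 change of -0.19. Of the hypoxia members 8 rose and 4 fell, with a median of 0.37, beside 0.010 over all genes. In 28 members the groups did not overlap (12 higher, 16 lower), where 55.8% of all genes did not (27.2% higher, 28.6% lower).

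**Figure D2:**
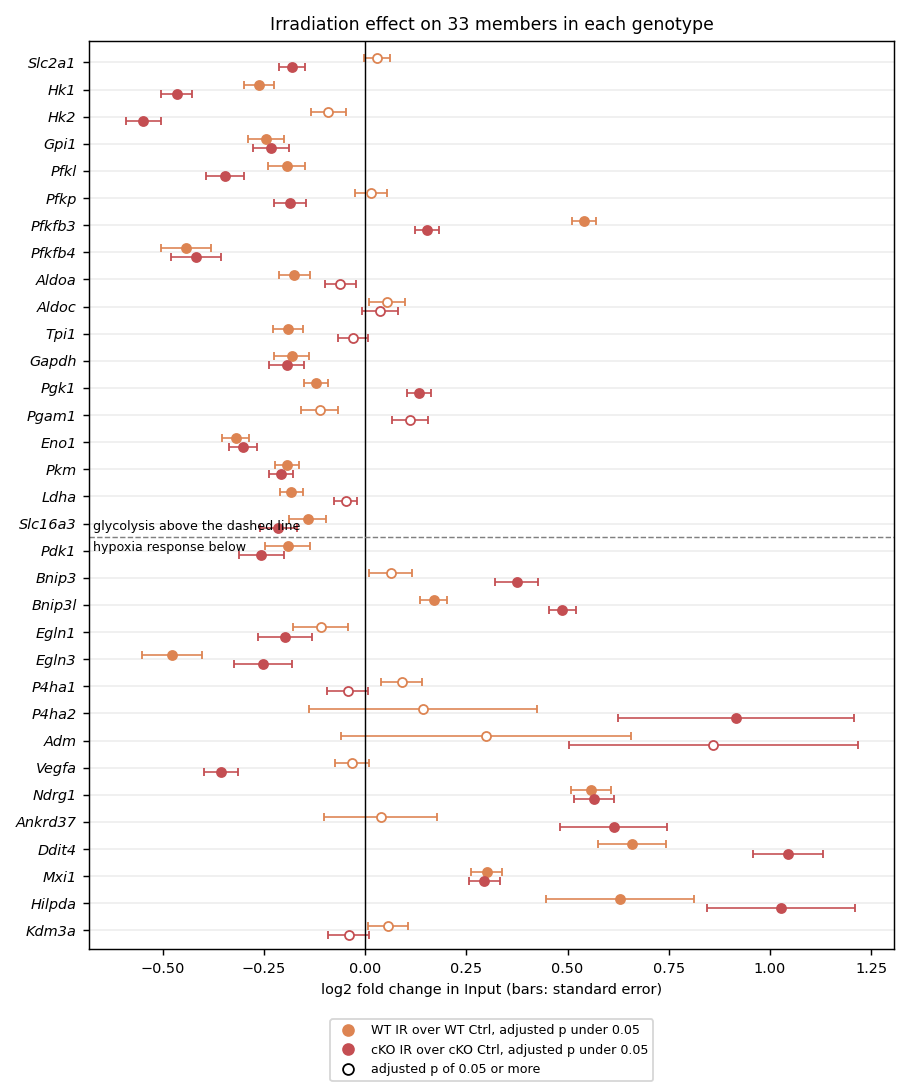
log2 fold change of Input after irradiation for each member (x axis), in WT (orange) and cKO (red); bars are standard errors and filled points passed an adjusted p of 0.05. Most glycolysis members lie left of 0 in both genotypes, and Ddit4, Hilpda and Ndrg1 lie right of 0 in both.

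Whether the irradiation effect differed between the genotypes was tested directly, as the effect in cKO minus that in WT. This interaction passed for 14 members (8 higher, 6 lower in cKO), where 30.2% of all genes passed (15% higher, 15.2% lower). The 6 with the more negative effect in cKO act mostly at the entry of glycolysis (Slc2a1, Hk1, Hk2, Pfkp and Pfkfb3), together with Vegfa. The 8 with the more positive effect were the lower-pathway genes Tpi1, Pgk1, Pgam1 and Ldha, the mitophagy receptors Bnip3 and Bnip3l, and Ankrd37 and Ddit4. Other members in the same parts of the pathway did not pass. Among these were Gpi1 (0.012), Pfkl (-0.15) and Pfkfb4 (0.025), and lower down Gapdh (-0.011), Eno1 (0.019) and Pkm (-0.014). The median interaction over all members was 0.0083, beside -0.00048 over all genes. Leaving out replicate 1 of the WT IR Inputs moved it to 0.067, and leaving out replicate 2 turned it to -0.030.

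Glucose enters through Slc2a1 (GLUT1), and hexokinases trap it in the cell. Slc2a1 was at 173, 178 and 169 CPM in WT Ctrl, 190.1, 192 and 195 in cKO Ctrl, 175, 178 and 177 in WT IR and 167, 172 and 170.4 in cKO IR. It did not pass the test in WT, at 0.03 ± 0.032 (SE, adjusted p = 0.533) on the log2 scale, and fell in cKO, at -0.18 ± 0.032 (SE, adjusted p = 8.74e-05). The cKO Ctrl libraries stood above every other library, and the interaction was -0.21 ± 0.045 (SE, adjusted p = 0.00121).

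Hk2, the inducible hexokinase, was at 93.1, 97.2 and 92.5 CPM in WT Ctrl, 105, 98.8 and 107 in cKO Ctrl, 92.5, 87.8 and 85.2 in WT IR and 68.7, 73.9 and 70.2 in cKO IR. The cKO IR libraries were the lowest 3, with no overlap with any other group. The fall in cKO was -0.55 ± 0.043 (SE, adjusted p = 2.52e-09), the WT change was -0.091 ± 0.043 (SE, adjusted p = 0.12), and the interaction, -0.46 ± 0.061 (SE, adjusted p = 1.00e-05), was the most negative among the members. Hk1, the constitutive form, was at 119, 117 and 120.0 CPM in WT Ctrl, 118, 123 and 123 in cKO Ctrl, 99.4, 96.8 and 100.4 in WT IR and 84.1, 91.6 and 88.2 in cKO IR. It fell in both genotypes, at -0.26 ± 0.038 (SE, adjusted p = 1.59e-05) in WT and at -0.47 ± 0.038 (SE, adjusted p = 3.90e-09) in cKO, and the interaction was -0.20 ± 0.054 (SE, adjusted p = 0.00633). Here too the 3 cKO IR libraries were below all others. The isomerase Gpi1 fell in both, with -0.24 in WT and -0.23 in cKO.

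The phosphofructokinase step commits sugar to glycolysis, and Pfkfb3 makes the fructose 2,6-bisphosphate that activates it. Pfkfb3 was at 319, 319.9 and 314 CPM in WT Ctrl, 339, 335 and 329 in cKO Ctrl, 475, 459 and 452 in WT IR and 364, 378 and 373 in cKO IR. It was the only glycolysis member that rose in WT, by 0.54 ± 0.03 (SE, adjusted p = 2.15e-11), and rose less in cKO, by 0.15 ± 0.03 (SE, adjusted p = 0.000263). All 6 irradiated libraries exceeded all 6 unirradiated ones, and the WT IR libraries exceeded the cKO IR libraries. The interaction was -0.39 ± 0.042 (SE, adjusted p = 1.03e-06).

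Pfkfb4, a related bifunctional enzyme, was at 31.6, 29.8 and 31.2 CPM in WT Ctrl, 33.01, 32.7 and 33.4 in cKO Ctrl, 24.5, 20.4 and 23.2 in WT IR and 25.4, 25.7 and 23.1 in cKO IR. It went the other way, with -0.44 ± 0.062 (SE, adjusted p = 1.19e-05) in WT and -0.42 ± 0.062 (SE, adjusted p = 1.13e-05) in cKO, and each irradiated library was below each unirradiated one. Pfkp, the platelet-type phosphofructokinase, was at 116, 115 and 117 CPM in WT Ctrl, 129.7, 126 and 127 in cKO Ctrl, 125, 114 and 113 in WT IR and 109.9, 113 and 114 in cKO IR. It fell in cKO, at -0.19 ± 0.039 (SE, adjusted p = 0.000465) with no change past the test in WT, and its interaction was -0.20 ± 0.055 (SE, adjusted p = 0.00814). The cKO Ctrl libraries were the highest 3. Pfkl, the liver type, fell in both genotypes (-0.19 and -0.35).

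In the lower part of glycolysis, where ATP is made, the largest falls were those of Eno1, -0.32 ± 0.034 (SE, adjusted p = 3.17e-07) in WT and -0.30 ± 0.034 (SE, adjusted p = 3.70e-07) in cKO. Pkm (-0.19 and -0.21) and Gapdh (-0.18 and -0.19), the dehydrogenase in mid-pathway, fell in both genotypes by similar amounts. Aldoa fell in WT, at -0.18 ± 0.038 (SE, adjusted p = 0.00132) and gave -0.062 ± 0.038 (SE, adjusted p = 0.209) in cKO. Its interaction, 0.11 ± 0.054 (SE, adjusted p = 0.128), did not pass, although it did without WT IR Input replicate 1 (0.17, adjusted p = 0.000218). Aldoc, a second aldolase, did not pass with irradiation in either genotype.

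Tpi1, Pgk1, Pgam1 and Ldha differed by genotype in their irradiation effect. Pgk1 was at 384, 374 and 389 CPM in WT Ctrl, 408, 398 and 397 in cKO Ctrl, 342, 357 and 355 in WT IR and 438, 444 and 437 in cKO IR. It fell in WT, at -0.12 ± 0.03 (SE, adjusted p = 0.00316) and rose in cKO by 0.13 ± 0.03 (SE, adjusted p = 0.000951), with the 3 WT IR libraries lowest and the 3 cKO IR libraries highest of the 12. The interaction was 0.26 ± 0.042 (SE, adjusted p = 9.73e-05).

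Pgam1 was at 291, 296 and 285 CPM in WT Ctrl, 289.6, 278 and 292 in cKO Ctrl, 286, 244 and 276 in WT IR and 298, 311 and 319 in cKO IR. Neither irradiation change passed the test, at -0.11 ± 0.045 (SE, adjusted p = 0.0661) in WT and 0.11 ± 0.045 (SE, adjusted p = 0.0535) in cKO, while the interaction did, at 0.22 ± 0.064 (SE, adjusted p = 0.0114). The cKO IR libraries were the highest 3 of the 12, and WT IR replicate 2 stood well below replicates 1 and 3.

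Tpi1, triose phosphate isomerase, was at 175, 177 and 176 CPM in WT Ctrl, 213, 205 and 209 in cKO Ctrl, 161, 147 and 155 in WT IR and 199, 212 and 204 in cKO IR. It fell in WT, at -0.19 ± 0.037 (SE, adjusted p = 0.000407) and gave -0.031 ± 0.037 (SE, adjusted p = 0.533) in cKO. All cKO libraries lay above all WT libraries, with WT IR lowest, and the interaction was 0.16 ± 0.052 (SE, adjusted p = 0.0241). This call was lost without WT Ctrl replicate 2 (adjusted p = 0.0524), cKO Ctrl replicate 2 (0.0691) or cKO IR replicate 2 (0.0801).

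Ldha was at 452, 463 and 460.4 CPM in WT Ctrl, 499, 492 and 483 in cKO Ctrl, 409.7, 401 and 402 in WT IR and 469, 484 and 472 in cKO IR. It fell in WT, at -0.18 ± 0.028 (SE, adjusted p = 3.82e-05) and gave -0.048 ± 0.028 (SE, adjusted p = 0.182) in cKO, with the 3 WT IR libraries below all others. The interaction was 0.13 ± 0.04 (SE, adjusted p = 0.0146), and without cKO Ctrl replicate 3 its adjusted p was 0.0501. Slc16a3, the transporter MCT4 that exports lactate, fell in both genotypes. Its WT call, -0.14 ± 0.046 (SE, adjusted p = 0.0225), was lost without any 1 of WT Ctrl replicates 1 and 2 or WT IR replicates 2 and 3, with adjusted p from 0.0586 to 0.125.

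**Figure D3:**
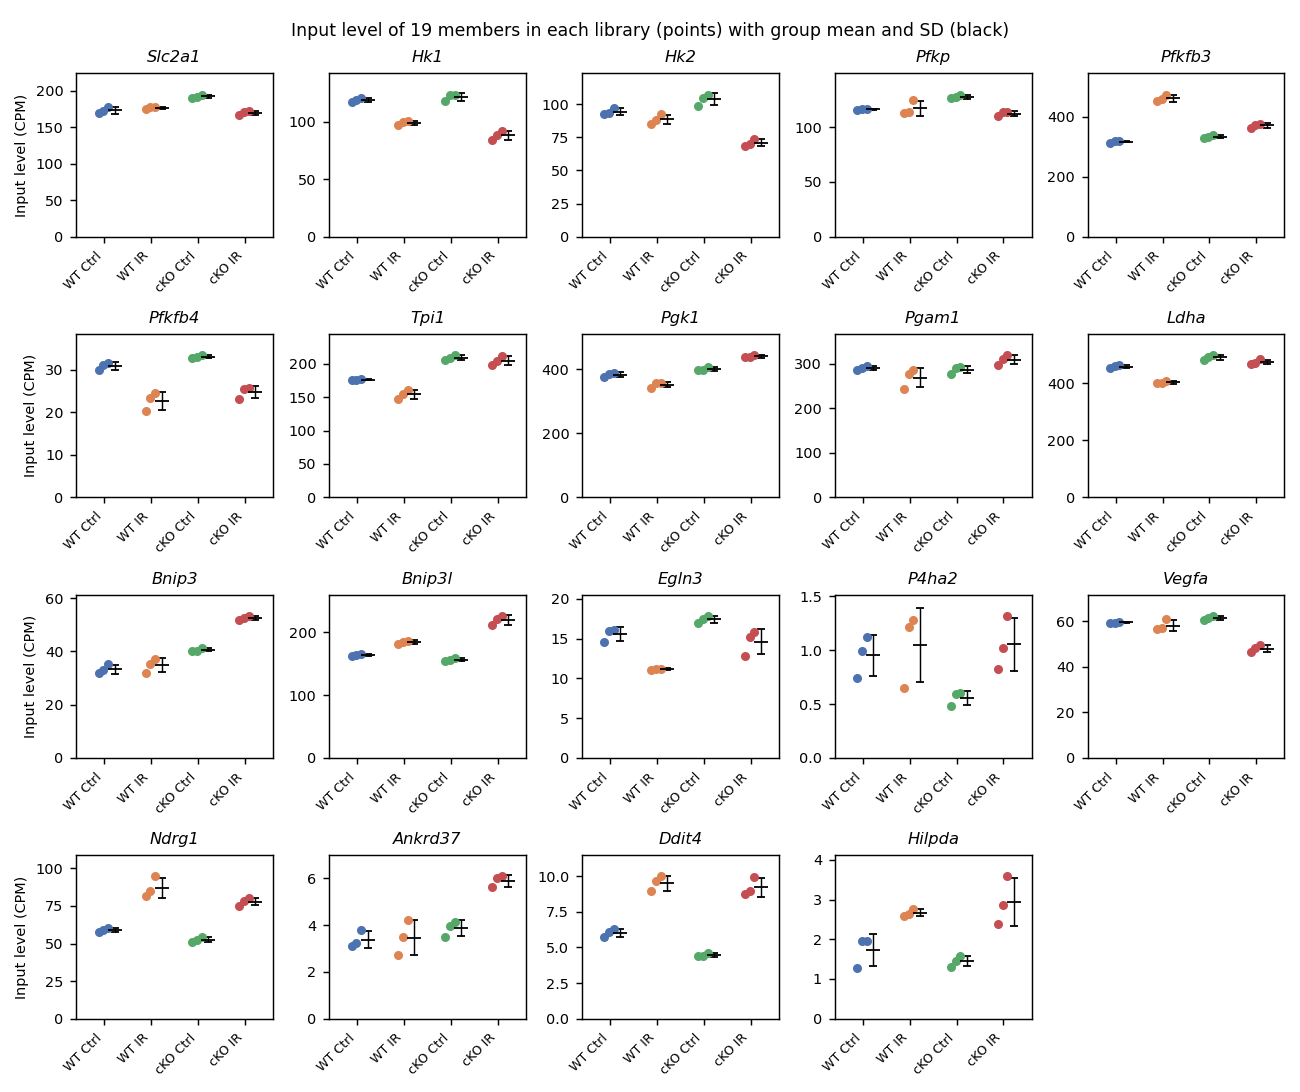
Input level in CPM (y axis, from 0) of the 19 members described library by library, by genotype and irradiation (x axis); points are libraries and black marks the mean and SD of 3. Ddit4 and Ndrg1 are higher in all irradiated libraries, and Hk2 and Vegfa are lowest in cKO IR.

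Among the hypoxia members, Pdk1, a kinase that inhibits pyruvate dehydrogenase, also fell after irradiation. It fell, at -0.19 ± 0.056 (SE, adjusted p = 0.0119) in WT and at -0.26 ± 0.055 (SE, adjusted p = 0.000629) in cKO. The WT call was lost without WT Ctrl replicate 1 (adjusted p = 0.0508).

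Bnip3 and Bnip3l mark mitochondria for removal. Bnip3 was at 31.8, 33.1 and 35.1 CPM in WT Ctrl, 41.2, 40.3 and 40.3 in cKO Ctrl, 32.0, 35.3 and 37.1 in WT IR and 51.9, 53.3 and 52.6 in cKO IR. It rose in cKO by 0.37 ± 0.052 (SE, adjusted p = 5.54e-06), gave 0.063 ± 0.054 (SE, adjusted p = 0.415) in WT and had an interaction of 0.31 ± 0.075 (SE, adjusted p = 0.00312). The 3 cKO IR libraries were the highest by a wide margin and the WT groups overlapped.

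Bnip3l was at 164, 162 and 166 CPM in WT Ctrl, 155, 157 and 159 in cKO Ctrl, 181, 187 and 185 in WT IR and 226, 221 and 211 in cKO IR. It rose in both genotypes, by 0.17 ± 0.033 (SE, adjusted p = 0.000471) in WT and 0.49 ± 0.033 (SE, adjusted p = 3.11e-10) in cKO, and the interaction was 0.32 ± 0.047 (SE, adjusted p = 3.17e-05). No irradiated library overlapped an unirradiated one, and cKO IR was highest.

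Egln3 and Egln1 are the oxygen sensors named above. Egln3 (PHD3) was at 16.01, 14.6 and 16.1 CPM in WT Ctrl, 17.43, 16.9 and 17.9 in cKO Ctrl, 11.1, 11.2 and 11.2 in WT IR and 12.9, 15.8 and 15.2 in cKO IR. It fell, at -0.48 ± 0.075 (SE, adjusted p = 4.01e-05) in WT and at -0.25 ± 0.073 (SE, adjusted p = 0.00707) in cKO, with the WT IR libraries lowest and closest together. The cKO call was lost without cKO IR replicate 1 (-0.17, adjusted p = 0.0589), and without that library the interaction passed (0.31, adjusted p = 0.0187). Egln1 (PHD2) fell in cKO, at -0.20 ± 0.067 (SE, adjusted p = 0.0201), a call lost without cKO Ctrl replicate 3 or cKO IR replicates 1 or 3. In WT it gave -0.11 ± 0.067 (SE, adjusted p = 0.236), which became -0.23 (adjusted p = 3.94e-05) without WT IR replicate 1.

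Of the collagen prolyl hydroxylases, P4ha1 did not pass with irradiation in either genotype, although in WT it passed without WT IR replicate 1 (0.17, adjusted p = 0.000487). P4ha2 was barely present, at 1.12, 0.745 and 0.990 CPM in WT Ctrl, 0.600, 0.486 and 0.593 in cKO Ctrl, 0.654, 1.28 and 1.22 in WT IR and 1.02, 1.32 and 0.826 in cKO IR. Its rise in cKO, 0.92 ± 0.29 (SE, adjusted p = 0.014), rests on 129 counts in cKO Ctrl and 223 in cKO IR summed over 3 libraries, and was lost without cKO Ctrl replicate 2 (adjusted p = 0.0565) or cKO IR replicate 2 (0.0831). In WT the groups overlapped.

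Vegfa, the angiogenic growth factor, was at 59.5, 59.5 and 59.7 CPM in WT Ctrl, 62.5, 61.6 and 60.6 in cKO Ctrl, 61.0, 56.5 and 57.1 in WT IR and 46.4, 49.8 and 48.1 in cKO IR. It fell in cKO, at -0.36 ± 0.042 (SE, adjusted p = 6.45e-07) and gave -0.034 ± 0.042 (SE, adjusted p = 0.6) in WT, with an interaction of -0.32 ± 0.059 (SE, adjusted p = 0.000301). The cKO IR libraries were the lowest 3, and the other 9 lay within 56.5 to 62.5 CPM. The second secreted factor, Adm (adrenomedullin), was under 1 CPM in every Input library. Its cKO change, 0.86 ± 0.36 (SE, adjusted p = 0.0558), was not past the test with all libraries, and became 1.33 (adjusted p = 0.00839) without cKO Ctrl replicate 1.

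The strongest rises were among the remaining hypoxia genes. Ddit4 (REDD1), an inhibitor of mTORC1 that stress also induces, was at 6.26, 6.11 and 5.70 CPM in WT Ctrl, 4.62, 4.38 and 4.43 in cKO Ctrl, 9.98, 8.95 and 9.63 in WT IR and 8.74, 9.97 and 8.97 in cKO IR. It rose by 0.66 ± 0.084 (SE, adjusted p = 3.33e-06) in WT and 1.04 ± 0.086 (SE, adjusted p = 4.36e-09) in cKO. Irradiated libraries of both genotypes reached a similar level from different unirradiated levels. The interaction, 0.38 ± 0.12 (SE, adjusted p = 0.0191), was lost without cKO IR replicate 2 (0.33, adjusted p = 0.0615).

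Hilpda, which inhibits lipid breakdown on lipid droplets, was at 1.94, 1.27 and 1.97 CPM in WT Ctrl, 1.31, 1.45 and 1.57 in cKO Ctrl, 2.65, 2.77 and 2.59 in WT IR and 2.38, 3.58 and 2.87 in cKO IR. It rose by 0.63 ± 0.18 (SE, adjusted p = 0.0118) in WT and 1.03 ± 0.18 (SE, adjusted p = 0.000102) in cKO, and every irradiated library was above every unirradiated one. The WT call was lost without WT Ctrl replicate 2, the lowest library (0.45, adjusted p = 0.0798), and the interaction, 0.40 ± 0.26 (SE, adjusted p = 0.28), did not pass.

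Ndrg1, a stress-responsive gene induced by hypoxia, was at 57.8, 60.5 and 59.2 CPM in WT Ctrl, 51.2, 54.5 and 52.2 in cKO Ctrl, 94.6, 81.5 and 85.1 in WT IR and 78.2, 75.3 and 80.2 in cKO IR. It rose by 0.56 ± 0.049 (SE, adjusted p = 2.24e-08) in WT and 0.57 ± 0.049 (SE, adjusted p = 1.02e-08) in cKO, again with no overlap between irradiated and unirradiated libraries. The interaction was 0.0083 ± 0.07 (SE, adjusted p = 0.951). Mxi1, a transcriptional repressor that opposes Myc, gave 0.30 in WT and 0.29 in cKO.

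Ankrd37, an ankyrin-repeat gene induced by HIF, was at 3.10, 3.78 and 3.25 CPM in WT Ctrl, 4.14, 3.47 and 3.98 in cKO Ctrl, 4.205, 3.49 and 2.72 in WT IR and 6.08, 5.62 and 6.02 in cKO IR. It rose in cKO by 0.61 ± 0.13 (SE, adjusted p = 0.000691), with the 3 cKO IR libraries highest, and in WT the groups overlapped (0.038 ± 0.14 SE, adjusted p = 0.872). Its interaction, 0.58 ± 0.19 (SE, adjusted p = 0.0283), was lost without any 1 of WT Ctrl replicate 2, WT IR replicate 3, cKO Ctrl replicate 2 or cKO IR replicates 1 and 3, with adjusted p from 0.0559 to 0.0868. Kdm3a, a histone demethylase, did not pass in any Input comparison.

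Genotype was then compared without irradiation. In cKO Ctrl against WT Ctrl 15 members passed (11 higher, 4 lower), where 15.7% of all genes did (8.05% higher, 7.61% lower). Of the glycolysis members 8 were higher and 1 lower, with a median log2 difference of 0.086. Of the hypoxia members 3 were higher and 3 lower. The median over all genes was -0.0011. In 23 members the libraries did not overlap (17 higher, 6 lower), where 36.3% of all genes did not (18.3% higher, 18% lower). The neutrophil marker sum was also lower in cKO Ctrl than in WT Ctrl. S100a8 (407 CPM in WT Ctrl, 154 in cKO Ctrl) and S100a9 (1032.5 and 381) gave most of that fall. Csf3r was higher (117 and 129.5), and the other neutrophil markers were lower. Of the macrophage markers, Apoe and Trem2 were lower in cKO Ctrl and the others higher. The part of these markers in the genotype differences was not tested.

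The largest differences among the called members were those of Ddit4 (-0.43 ± 0.087 SE, adjusted p = 0.00158), Aldoc (0.33 ± 0.044 SE, adjusted p = 1.84e-05), Pfkl (0.31 ± 0.046 SE, adjusted p = 7.38e-05) and Bnip3 (0.29 ± 0.053 SE, adjusted p = 0.000657). Slc16a3 (0.27), Pdk1 (0.27) and Tpi1 (0.25) were also higher in cKO Ctrl, and Pkm (-0.14), Mxi1 (-0.19) and Ndrg1 (-0.17) were lower. The calls of Hk2 (0.14), Pfkp (0.14), Ldha (0.099), P4ha1 (0.18) and Ndrg1 were each lost when 1 of several unirradiated libraries was left out, with adjusted p from 0.0503 to 0.157. The count of members past the test was 11 without any 1 of WT Ctrl replicates 1 and 3 or cKO Ctrl replicates 1 and 3.

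Among irradiated cells, cKO IR against WT IR, 19 members passed (12 higher, 7 lower), against 47.7% of all genes (23.9% higher, 23.8% lower). The largest differences among the called members were those of Ankrd37 (0.77 ± 0.14 SE, adjusted p = 8.16e-05), Bnip3 (0.60 ± 0.053 SE, adjusted p = 1.21e-08), Tpi1 (0.41 ± 0.037 SE, adjusted p = 1.57e-08), Egln3 (0.39 ± 0.075 SE, adjusted p = 0.000232) and Pgk1 (0.32 ± 0.03 SE, adjusted p = 2.03e-08). The largest called in the other direction were Hk2 (-0.32 ± 0.044 SE, adjusted p = 4.07e-06), Pfkfb3 (-0.31 ± 0.03 SE, adjusted p = 3.25e-08) and Vegfa (-0.28 ± 0.042 SE, adjusted p = 1.73e-05). The median over the members was 0.086, beside -0.0028 over all genes, and in 19 members the libraries did not overlap (11 higher, 8 lower), where 52.1% of all genes did not (26% higher, 26% lower). Ndrg1 (-0.16) lost its call without cKO IR replicate 2 and Pfkl (0.15) without cKO IR replicate 3, with adjusted p of 0.0569 and 0.0755.

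Genes next to the members in these pathways were taken from fixed lists. Of 13 tested genes of other glycolysis and lactate isoforms (19 listed), 2 rose and 5 fell in WT after irradiation, where 31.7% of all genes were called, and 3 rose and 3 fell in cKO, where 45.6% were. The largest called changes were the fall of Slc2a3 (GLUT3), -1.82 ± 0.077 (SE, adjusted p = 3.36e-13) in WT and -1.25 ± 0.081 (SE, adjusted p = 1.57e-10) in cKO, and the rise of the enolase Eno2, 0.84 ± 0.11 (SE, adjusted p = 4.03e-06) and 0.67 ± 0.11 (SE, adjusted p = 3.14e-05). Slc2a3 was also lower in cKO Ctrl than in WT Ctrl (-1.22 ± 0.073 SE, adjusted p = 2.79e-10). The neutrophil sums given above were lower in the same groups, and their part in this was not tested.

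The shares of all genes called, 31.7% in WT, 45.6% in cKO and 30.2% in the interaction, stand behind each of the next counts as well. Of 10 tested HIF factors and regulators (11 listed), 2 rose and 3 fell in WT and 2 rose and 4 fell in cKO, with Epas1 (HIF-2 alpha) falling in cKO, at -0.79 ± 0.19 (SE, adjusted p = 0.00223). Of 24 tested hypoxia-induced genes outside the members (28 listed), 6 rose and 7 fell in WT and 10 rose and 4 fell in cKO. Nos2, the inducible nitric oxide synthase, rose in WT (0.73 ± 0.24 SE, adjusted p = 0.0277) and cKO (0.69 ± 0.24 SE, adjusted p = 0.0229). In the interaction 5 of these were higher and 4 lower in cKO, led by Fam162a (0.73 ± 0.098 SE, adjusted p = 1.02e-05) and Higd1a (0.61 ± 0.086 SE, adjusted p = 1.62e-05), both mitochondrial proteins. Of 7 pentose phosphate genes 3 fell in WT, and 3 rose and 3 fell in cKO. Of 11 tested genes of pyruvate import and pyruvate dehydrogenase (12 listed) 1 rose and 2 fell in WT, and 5 rose and 1 fell in cKO.

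The IP libraries measure the RNA pulled down by the m6A antibody, and the log2 ratio of IP over Input describes how strongly a gene is pulled down relative to the other genes. In WT Ctrl 30 members passed (16 higher, 14 lower in IP), where 75.5% of all 17373 genes did (38.1% higher, 37.5% lower), with a median of 0.091. In cKO Ctrl 28 passed (11 higher, 17 lower), where 73.7% did (37.8% higher, 36% lower), with a median of -0.21. Over all genes the medians were 0.018 and 0.019.

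The largest enrichments in WT Ctrl were those of Ankrd37 (1.73 ± 0.12 SE, adjusted p = 2.85e-15), Hilpda (1.60 ± 0.14 SE, adjusted p = 6.01e-12), Egln1 (1.37 ± 0.056 SE, adjusted p = 3.13e-21), Pfkp (1.23 ± 0.033 SE, adjusted p = 3.06e-26) and Egln3 (1.09 ± 0.061 SE, adjusted p = 2.58e-17). The IP level of Egln1 was at 264, 261 and 253 CPM in WT Ctrl, 170.0, 184 and 182 in cKO Ctrl, 150.2, 156 and 152 in WT IR and 189, 182 and 183 in cKO IR, with the WT Ctrl libraries above all others. That of Ankrd37 was at 12.8, 13.8 and 12.2 CPM in WT Ctrl, 7.79, 8.47 and 8.65 in cKO Ctrl, 3.82, 4.14 and 3.88 in WT IR and 5.56, 5.77 and 6.61 in cKO IR, again highest in WT Ctrl.

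The strongest depletion was that of Pfkfb3, -4.16 ± 0.034 (SE, adjusted p = 4.48e-40) in WT Ctrl and -4.33 ± 0.034 (SE, adjusted p = 1.62e-40) in cKO Ctrl. Its IP level was at 20.3, 20.3 and 20.9 CPM in WT Ctrl, 19.9, 19.4 and 18.7 in cKO Ctrl, 32.5, 32.2 and 32.4 in WT IR and 28.6, 29.7 and 28.7 in cKO IR, while its Input level lay at 314 to 475 CPM. The WT IR and cKO IR libraries were higher than the unirradiated ones in IP as in Input. P4ha2 (-3.24, on 25 IP counts summed over 3 libraries) and Ndrg1 (-1.51) were the next most depleted, and Pkm (-0.93), Bnip3l (-0.89) and Aldoa (-0.85) followed.

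The difference of IP over Input between the genotypes was tested in unirradiated cells. Of the members 24 passed, 3 higher and 21 lower in cKO, where 22.6% of all genes passed (10.1% higher, 12.5% lower). The median difference was -0.19 over the members and -0.0033 over all genes. Of the glycolysis members 13 were lower and 1 higher, and of the hypoxia members 8 were lower and 2 higher. The 15 Input differences between these groups given above enter this ratio, since an Input that is higher in cKO lowers it.

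Vegfa differed most among the called members. Its IP level was at 85.8, 87.1 and 88.1 CPM in WT Ctrl, 42.4, 44.8 and 39.2 in cKO Ctrl, 39.9, 44.3 and 42.9 in WT IR and 77.5, 79.5 and 77.3 in cKO IR. The WT Ctrl libraries and the libraries labelled cKO IR stood near each other and well above the other 6, without overlap, and these are also the 6 IP libraries with the high Lyz2 level. Its IP over Input was 0.34 ± 0.044 (SE, adjusted p = 2.44e-08) in WT Ctrl and -0.77 ± 0.045 (SE, adjusted p = 7.76e-17) in cKO Ctrl, a difference of -1.10 ± 0.063 (SE, adjusted p = 2.34e-15), while its Input difference, 0.047 ± 0.042 (SE, adjusted p = 0.532), did not pass.

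After Vegfa came Ankrd37 (-0.84 ± 0.16 SE, adjusted p = 0.00015), Egln1 (-0.72 ± 0.078 SE, adjusted p = 6.68e-09), Bnip3 (-0.51 ± 0.074 SE, adjusted p = 2.31e-06) and Pfkl (-0.47 ± 0.06 SE, adjusted p = 1.64e-07). The 3 members with a higher ratio in cKO were Mxi1 (0.36 ± 0.055 SE, adjusted p = 5.01e-06), Bnip3l (0.20 ± 0.045 SE, adjusted p = 0.00115) and Pkm (0.11 ± 0.039 SE, adjusted p = 0.0367). The Pkm call was lost when any of 11 of the 12 unirradiated libraries was left out, with adjusted p from 0.0583 to 0.102. Among the lower ratios, the call of Hk2 (-0.15) was lost in 6 of these 12 cases (adjusted p from 0.0627 to 0.1015) and with RLE size factors (0.057), and that of Aldoc (-0.18) in 4 (0.06 to 0.0663).

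**Figure D4:**
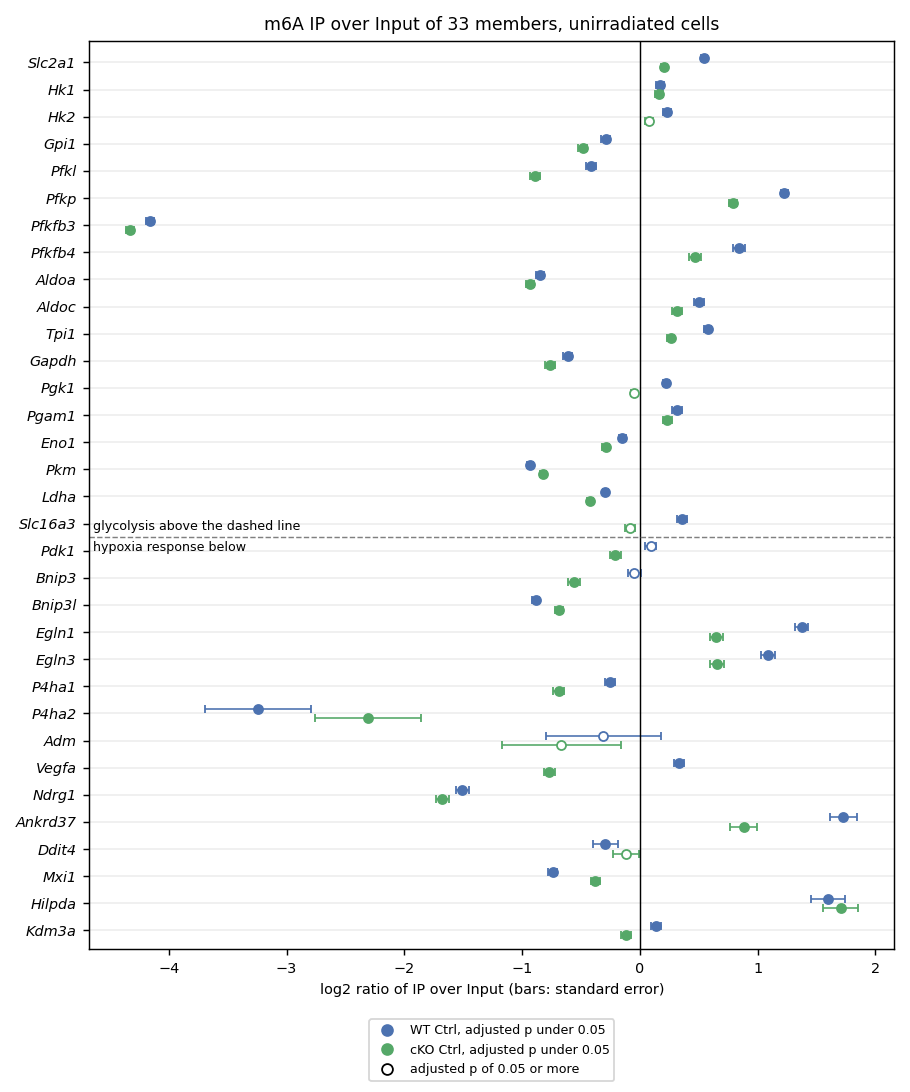
log2 ratio of m6A IP over Input (x axis) of the 33 members in WT Ctrl (blue) and cKO Ctrl (green); bars are standard errors and filled points passed an adjusted p of 0.05. Ankrd37, Hilpda, Egln1 and Pfkp lie to the right, Pfkfb3 lies near -4 in both genotypes, and the cKO point of Vegfa lies on the other side of 0 from its WT point.

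In the irradiated groups, taken by label, 30 members passed in WT IR (11 higher, 19 lower in IP), where 73.5% of all genes did (37% higher, 36.5% lower), and 30 in cKO IR (10 higher, 20 lower), where 73.8% did (36.9% higher, 36.9% lower). The Input of the other genotype label was also used, since its Lyz2 is low or high as in the IP, though not equal. For the libraries labelled WT IR the count was then 31 (9 higher, 22 lower) beside 71.5% (36.4% higher, 35.2% lower). For those labelled cKO IR it was 31 (15 higher, 16 lower) beside 75.4% (37.8% higher, 37.6% lower). The IP libraries labelled WT IR gave a median of -0.16 by label and -0.39 by matched Lyz2 level. Those labelled cKO IR gave -0.22 and -0.090.

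Several members turned with that choice. Ankrd37 in the IP libraries labelled cKO IR gave -0.19 ± 0.11 (SE, adjusted p = 0.131) by label and 0.58 ± 0.12 (SE, adjusted p = 5.41e-05) by Lyz2 level. Tpi1 gave 0.14 ± 0.033 (SE, adjusted p = 0.000232) and -0.27 ± 0.032 (SE, adjusted p = 7.90e-09) in the libraries labelled WT IR, and -0.29 ± 0.032 (SE, adjusted p = 1.07e-09) and 0.12 ± 0.033 (SE, adjusted p = 0.00166) in those labelled cKO IR. Pgk1 in the latter gave -0.24 and 0.079, and Pgam1 -0.099 and 0.10. The members at the extremes did not turn. Pfkfb3 stayed between -4.20 and -3.76 and Pfkp between 1.06 and 1.20 under both pairings, Pfkfb4 between 1.10 and 1.49, and Ndrg1 between -1.91 and -1.71. Vegfa kept its direction, with -0.70 and -0.42 in the libraries labelled WT IR and 0.49 and 0.22 in those labelled cKO IR.

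Peaks called by the authors show where in the transcripts the antibody signal lay. A peak present in all 3 libraries of a group on the strand of the gene was found for 17 members in WT Ctrl (against 27.7% of all genes tested), 13 in cKO Ctrl (against 25.8%), 10 by label in WT IR (against 23.3%) and 6 by label in cKO IR (against 20.8%). Hk1, Hk2, Pfkp, Pfkfb4, Slc16a3 and Egln1 had one in all 4 groups, where 16.1% of all genes did. Another 11 members had one in some groups, and 16 had none in any. Gapdh, Pfkfb3, Bnip3l, Ndrg1, Ddit4, Mxi1, P4ha2 and Adm had no peak in any of the 12 libraries. With a fold of at least 4 over the control at the summit, 5 members remained in WT Ctrl (against 10% of all genes), 1 in cKO Ctrl (against 8.57%), 3 in WT IR (against 7.26%) and 2 in cKO IR (against 6.41%).

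The position of the peaks was varied. In WT Ctrl the 39 shared peaks of members had their summits in coding sequence (19), 3' UTR (11), intron of the representative transcript (8) or another exon (1). The strongest was that of Egln1, with a fold of 6.89 ± 0.663 at chr8:124914056-124914291 in an intron of the representative transcript. In the other groups the strongest shared Egln1 peak was in the 3' UTR, at 2.89 ± 0.578 in cKO Ctrl, 2.98 ± 0.687 in WT IR and 2.41 ± 0.484 in cKO IR.

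Hilpda followed with 6.08 ± 0.451 in its 3' UTR at chr6:29274639-29275280, the peak whose GGAC window is printed above, and the strongest peak in cKO Ctrl reached 5.02 ± 0.154. In the libraries labelled WT IR it was at 2.24 ± 0.209 with the summit at the end of the coding sequence, and in those labelled cKO IR no peak was shared by all 3. Ankrd37 had a coding-sequence peak of 5.62 ± 1.88 in WT Ctrl at chr8:45997653-45997950 and of 3.61 ± 0.375 in cKO Ctrl, and none shared in either irradiated group. Its IP level in the irradiated groups, 3.82 to 6.61 CPM, was also below that of the unirradiated ones, 7.79 to 13.8 CPM.

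Pfkp held many peaks, 9 shared in WT Ctrl, 5 in cKO Ctrl, 6 in WT IR and 6 in cKO IR. The strongest in WT Ctrl, 5.51 ± 1.06 at chr13:6597939-6598127 in exon 16 of 22, contains the GGACT window printed above, and was again the strongest in cKO IR at 5.01 ± 0.441. In the hexokinases a peak 307 to 321 bases before the end of the coding sequence stood out. In Hk1 it reached 5.46 ± 0.490 in WT Ctrl, 6.88 ± 1.24 in WT IR and 4.78 ± 1.10 in cKO IR, with none shared in cKO Ctrl. In Hk2 it reached 6.85 ± 1.66 in cKO IR at chr6:82728832-82729013, while the strongest shared Hk2 peak of the other groups was at 1.75 to 2.36 and elsewhere in the gene. No test compared folds between groups. Which Input served as control is not given, so folds and peak counts in the irradiated groups may be over an Input with the other Lyz2 level.

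Peaks of abundant glycolytic genes had low folds in WT Ctrl. The strongest shared peaks were those of Tpi1 (2.31 ± 0.071), Pgam1 (1.96 ± 0.151), Slc16a3 (1.78 ± 0.132), Eno1 (1.61 ± 0.059), Ldha (1.52 ± 0.448) and Pgk1 (1.47 ± 0.100). GGACT was found within 50 bases of the summit in 5 of the 39 shared peaks of members in WT Ctrl (12.8%), against 11.5% of all 12181 shared peaks. GGAC was found in 17 of 39 (43.6%), against 35.2%. In cKO Ctrl GGACT was found in 5 of 20 member peaks (25%, against 11.4%). By label it was in 7 of 27 in WT IR (25.9%, against 11.2%) and 5 of 21 in cKO IR (23.8%, against 12.1%). GGAC was in 55%, 48.15% and 61.9% of these peaks, against 35.1%, 35.6% and 36.55%. Of the strongest peak per member in WT Ctrl, Egln1, Ankrd37, Hk1, Egln3, Aldoc, Hk2, Slc2a1, Eno1 and Pgk1 had no GGAC in that window. A match, also in the windows printed above, says that these letters lie near the summit and not which base carried m6A. The share of windows outside peaks with a match was not measured.

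**Figure D5:**
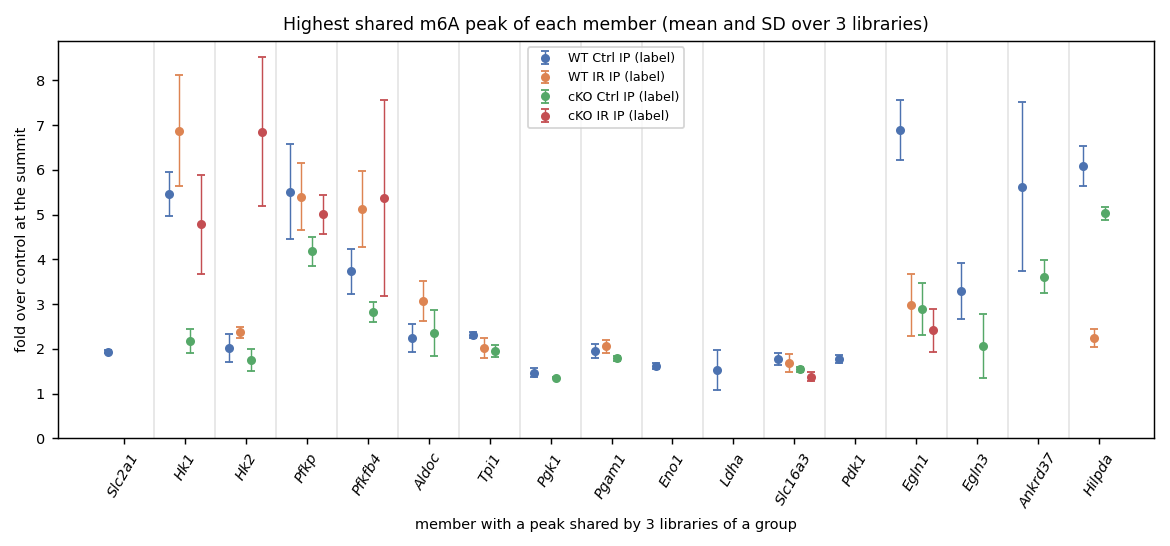
Fold over the control at the summit (y axis) of the highest peak shared by all 3 libraries of a group, for the 17 members with such a peak (x axis); points are means and bars SDs over 3 libraries, irradiated groups are by label, and a missing point means no shared peak. Egln1, Hilpda and Ankrd37 are highest in WT Ctrl, and the Hk2 point of cKO IR lies far above the other Hk2 points.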

How the data were processed

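CD11b+ cells from MC38 tumours gave 12 Input and 12 m6A IP libraries in 8 groups of 3. Per the study's methods, the authors used Trimmomatic 0.39 for trimming and HISAT for alignment to mm10, counted unique reads per gene with HTSeq on GENCODE vM19, and these raw counts were deposited for 54446 identifiers, of which 54409 matched GENCODE vM21 and 37 did not. The authors called peaks with MACS2 per library and strand, using SAMtools and bedtools 2.26.0. The deposited peak tables hold a fold (ratio) over the control, −log10 p and q-values and a score, and which Input served as control is not given in the sources used here.

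Counts were tested with edgeR 4.0.16 in R 4.3.3 (quasi-likelihood test, TMM scaling, Benjamini-Hochberg adjustment over all genes tested, adjusted p under 0.05). Genes needed at least 10 counts in at least 3 libraries. The 12 Input libraries shared 1 fit, and all 24 libraries shared 1 fit for IP over Input. SEs are on the log2 scale, CPM are TMM-scaled, marker sums are not, and RPKM use the union of exons. Peaks were joined where the 3 libraries of a group overlapped by at least 1 base on the strand of the gene. The fit was tested on simulated data with 200 changed genes. Python 3.11.15, pandas 2.3.3 and pysam 0.24.0 read peaks and sequences.

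The fits had no replicate block, and the replicate numbers did not pair the samples. Alternatives were RLE size factors, DESeq2 1.42.0, other count filters, only the libraries of a contrast, a replicate block, each library left out, the other Inputs, and stricter or looser peak rules. Values in every library are given for the 12 members with the largest called Input change and for every member whose interaction passed. Of the pathway lists, at most the 2 largest called changes per direction and contrast are named. The members and lists were chosen with earlier results of these data known. Total gene counts per library leave counting error small except for Adm, P4ha2, Hilpda and Ankrd37.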

Additional observations from a re-analysis of the deposited data

Results flagged for a closer look

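The irradiation effect in Input differed between the genotypes in 14 members, tested as the effect in cKO minus that in WT on the log2 scale by edgeR's quasi-likelihood test. It was more positive in cKO for Tpi1 (0.16), Pgk1 (0.255), Pgam1 (0.223), Ldha (0.134), Bnip3 (0.311), Bnip3l (0.317), Ankrd37 (0.575) and Ddit4 (0.385). It was more negative for Slc2a1 (-0.21), Hk1 (-0.204), Hk2 (-0.457), Pfkp (-0.2), Pfkfb3 (-0.388) and Vegfa (-0.322).

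The log2 ratio of IP over Input differed between unirradiated cKO and WT cells in 24 members, by the same test. It was higher in cKO for Pkm (0.112), Bnip3l (0.198) and Mxi1 (0.361). It was lower for Slc2a1 (-0.335), Hk2 (-0.154), Gpi1 (-0.192), Pfkl (-0.473), Pfkp (-0.436), Pfkfb3 (-0.168), Pfkfb4 (-0.375), Aldoc (-0.184), Tpi1 (-0.315), Pgk1 (-0.271), Eno1 (-0.141), Ldha (-0.132), Slc16a3 (-0.443), Pdk1 (-0.3), Bnip3 (-0.51), Egln1 (-0.723), Egln3 (-0.432), P4ha1 (-0.439), Vegfa (-1.1), Ankrd37 (-0.844) and Kdm3a (-0.254). The calls of Pkm, Hk2 and Aldoc were lost when 1 of several libraries was left out, and that of Hk2 also with RLE size factors (adjusted p = 0.057). With 3 libraries a group, single libraries were not tested for standing apart from the others.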

How the results depend on the processing

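The number of members past the test stayed within 1.5 times its value with RLE size factors, DESeq2, both other count filters, the libraries of a contrast alone, and the Inputs of the other genotype label. Leaving out 1 library gave 18 to 24 members for WT IR against WT Ctrl, 24 to 28 for cKO IR against cKO Ctrl, 11 to 19 for cKO Ctrl against WT Ctrl, 18 to 24 for cKO IR against WT IR and 12 to 16 for the interaction. For IP over Input it gave 29 to 30 in WT Ctrl, 27 to 29 in cKO Ctrl, 29 to 30 in WT IR, 28 to 30 in cKO IR and 21 to 24 for the genotype difference. Members with a shared peak then numbered 17 to 18 in WT Ctrl, 12 to 14 in cKO Ctrl, 10 to 12 in WT IR and 6 to 8 in cKO IR. A fold of at least 4 left 5 in WT Ctrl, 1 in cKO Ctrl, 3 in WT IR and 2 in cKO IR.

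With the Inputs of the other genotype label, IP over Input turned to -0.27 for Tpi1 in WT IR, and in cKO IR to 0.12 for Tpi1, 0.079 for Pgk1, 0.10 for Pgam1, 0.010 for Pdk1 (edgeR adjusted p = 0.862) and 0.58 for Ankrd37. The cause was not tested. The median of the members for the interaction was 0.067 without WT IR Input replicate 1 and -0.030 without replicate 2, and RLE size factors moved the WT Ctrl IP over Input median to 0.034. Of the single Input values with 1 library left out, 1909 kept their side of the threshold, 45 lost the call and 26 gained it. Of the IP over Input values 1147 kept their side, 35 lost the call and 6 gained it. Values called in both fits kept their direction, and direction was not compared for values called in neither.

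With the replicate number as a block, the counts were 20, 26, 14, 19 and 14 for the Input comparisons in the order above, and 30, 28, 30, 30 and 25 for IP over Input. The numbers did not pair the samples, since same-numbered Input libraries correlated between -0.17 and 0.094 in their deviations from the group means. Members with few counts, such as Adm and P4ha2, limit what can be detected.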
